A study of Mus musculus with 3 samples.

Results

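The replication-dependent histone genes were described across the 3 genotypes of the study in LT-HSCs, the long-term hematopoietic stem cells from which blood is renewed throughout life. Members were the genes whose name in the array files starts with Hist1h, Hist2h, Hist3h or Hist4h. They numbered 56 of the 37074 genes on the array, read by 68 of 56605 non-control probes, and each gene was represented by its probe with the highest mean signal over the 3 arrays. By type, 6 members encode linker histone H1, 18 H2A, 14 H2B, 9 H3 and 9 H4. By position (mm9, from the probe coordinates), 42 members carry the cluster name Hist1 and lie on chromosome 13, 10 carry Hist2 on chromosome 3, 3 carry Hist3 on chromosome 11 and 1 carries Hist4 on chromosome 6.

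One array was hybridized per genotype, so the comparisons below have no replicate check, no test and no p-value. The WT array came from floxed mice without a Cre transgene, the AtmsKO array from CAG-CreERT2::Atm flox/flox mice, and the Atmp38dKO array from CAG-CreERT2 mice with both Atm and p38α (Mapk14) floxed, all on C57BL/6J and all given tamoxifen, the controls included per the methods. The CAG promoter drives the tamoxifen-inducible Cre in all tissues, so deletion was not restricted to blood cells, and how many mice gave the RNA of an array is not given in the sources used here. The labels give an age of 11 weeks and a CD150+CD48-Flt3-CD34- LSK sort (lineage-negative, Sca-1+, c-Kit+). The series text describes an earlier age at analysis and names CD34 and Flt3 only, while the methods add CD41.

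In a proliferating cell the core histones H2A, H2B, H3 and H4 wrap DNA into nucleosomes, and H1 binds the linker DNA between them. Their genes are intronless, lie in clusters and are transcribed mainly in S phase, when new DNA must be packaged. Their mRNAs normally end not in a poly(A) tail but just after a conserved stem-loop that is bound by SLBP, and they are degraded when DNA synthesis stops. A minority of histone genes can also yield longer polyadenylated transcripts that run past the stem-loop, a form known from resting and differentiated cells. LT-HSCs are mostly quiescent.

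The 60-base probes were placed by what part of the transcript they read. The classes use position and sequence only, but were drawn up after the signals had been seen. A probe was called a stem-loop probe if it holds the 16-base histone stem-loop, whole or at least 9 bases of it at a probe end with at most 1 mismatch. A distal probe starts at base 500 or later of its design transcript (700 for H1) and holds no stem-loop, and the remaining probes are body probes. For 33 members the brightest probe was a body probe, for 11 a stem-loop probe and for 12 a distal probe.

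The following 30-base windows from stem-loop probes of 6 members are shown, 5′ to 3′ with the stem-loop in capitals, because they mark where the normal mRNA ends. Of all 56605 probes, 6 held the whole stem-loop without a mismatch, and 5 of these were histone probes of the set.
Hist1h2bf: taacccaaaGGCTCTTTTCAGAGCCaccta
Hist1h3a: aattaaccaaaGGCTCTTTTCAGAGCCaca
Hist1h3i: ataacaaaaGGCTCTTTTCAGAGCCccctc
Hist1h3g: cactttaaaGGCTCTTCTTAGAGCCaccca
Hist2h2bb: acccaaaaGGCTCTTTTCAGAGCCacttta
Hist1h4m: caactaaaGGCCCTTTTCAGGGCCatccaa

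Distal probes start farther along their design transcripts. Of the 19 distal probes, 4 held a poly(A) signal (AATAAA or ATTAAA on the probe's strand), against 13.4% of all probes, and the windows are shown with the signal in capitals because this signal marks the ends of polyadenylated transcripts.
Hist2h2be: gatcgAATAAAtccattcactgcatgtgca
Hist1h2be: gtactgttcattATTAAAgcattcctgatt
Hist2h2bb: gttgtcagtttgAATAAAgacagagaaact
Hist3h2ba: gttcataatggtattAATAAAtttggttca

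Histone coding sequences are nearly alike, and body probes of different genes can share long runs of bases. Of the 33 body-probe members, 14 had a probe that the files list against more than 1 RefSeq transcript, and for 16 the longest run of bases shared with a probe of another member was at least 17. For 10 of the 33 that run was at least 25 bases, and for none of the 12 distal-probe members did it reach 17. More than 1 RefSeq transcript was also listed for 2 distal-probe members, Hist1h2bq among them, and for 2 stem-loop-probe members. Shared runs were measured between probes of the members only and not against transcripts, so they do not show that a distal probe reads 1 gene. The coding ends of 6 H2A genes are shown because one 29-base run, in capitals, is common to all 6 probes.
Hist1h2ah: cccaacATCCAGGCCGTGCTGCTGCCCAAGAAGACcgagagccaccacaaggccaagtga
Hist1h2ak: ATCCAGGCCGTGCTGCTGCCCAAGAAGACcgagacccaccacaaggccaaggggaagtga
Hist1h2af: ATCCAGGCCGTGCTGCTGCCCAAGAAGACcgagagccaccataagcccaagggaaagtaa
Hist2h2aa2: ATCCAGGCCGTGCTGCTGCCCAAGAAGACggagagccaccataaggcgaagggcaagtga
Hist2h2ac: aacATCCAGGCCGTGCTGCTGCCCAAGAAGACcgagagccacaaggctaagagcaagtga
Hist1h2aa: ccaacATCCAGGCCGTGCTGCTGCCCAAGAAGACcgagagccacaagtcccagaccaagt

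Hist1h2aa and Hist1h2ba encode the H2A and H2B variants known from male germ cells. The longest run that the Hist1h2aa probe shares with the Hist2h2ac probe is 45 bases. The Hist1h2ba probe is shown beside that of Hist1h2bb, with the 44 of 49 aligned bases that match in capitals.
Hist1h2ba: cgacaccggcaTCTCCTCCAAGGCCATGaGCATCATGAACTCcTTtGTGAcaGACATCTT
Hist1h2bb: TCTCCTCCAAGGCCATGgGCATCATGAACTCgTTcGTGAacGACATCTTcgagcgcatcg
Signals of body probes are therefore uncertain as to the gene, and whether the germ-line names were read through their somatic relatives was not tested.

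Arrays were compared as log2 of the processed signal minus the array's 75th percentile, termed the normalized signal. A value that failed Agilent's background test was raised to the lowest normalized signal that passed it on that array, so that a difference against it is a bound. A gene counted as higher or lower if it differed at least 2-fold and was well above background on the brighter array. Of all non-control probes, 68.9% to 77.7% were well above background on an array, no spot was saturated, and the median SD between spots of probes printed 10 times on 1 array was 0.05 on the log2 scale. That SD is technical and says nothing of the spread between mice.

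Mapk14, one of the deleted genes, was not lower on the array labelled Atmp38dKO at either of its probes. The signals of the first Mapk14 probe were 294.7 (WT), 260.4 (AtmsKO) and 345.3 (Atmp38dKO), and those of the other 469.2, 558.0 and 615.9. At the first Atm probe the signals were 88.8, 16.3 and 49.0, and at the other 87.0, 23.9 and 86.5. Atm was thus lower on the AtmsKO array at both probes, by 2.37 and 1.79 log2 units, while on the array labelled Atmp38dKO it differed from WT by -1.07 and -0.22. Whether these probes lie within the deleted exons was not checked, and every direction below that involves that array is given for the array as labelled.

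Histone transcripts were detected broadly in these cells. On the WT array 47 members were well above background, on the AtmsKO array 48 and on the array labelled Atmp38dKO 50. All 3 arrays detected 47 members, or 83.9%, against 68.5% of all genes. All 6 H1 and 9 H4 members were detected on every array, as were 13 of 18 H2A, 12 of 14 H2B and 7 of 9 H3 members. The 6 members detected on no array were Hist1h2ad, Hist1h2ae, Hist1h2al, Hist2h2aa1, Hist1h2bp and Hist1h3a, named here after their values were seen. Of the 33 body-probe members, 24 had a mean signal of at least 1000 intensity units, as did 1 of the 12 distal-probe and 0 of the 11 stem-loop-probe members. Over all genes the share was 7.24%.

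**Figure D1:**
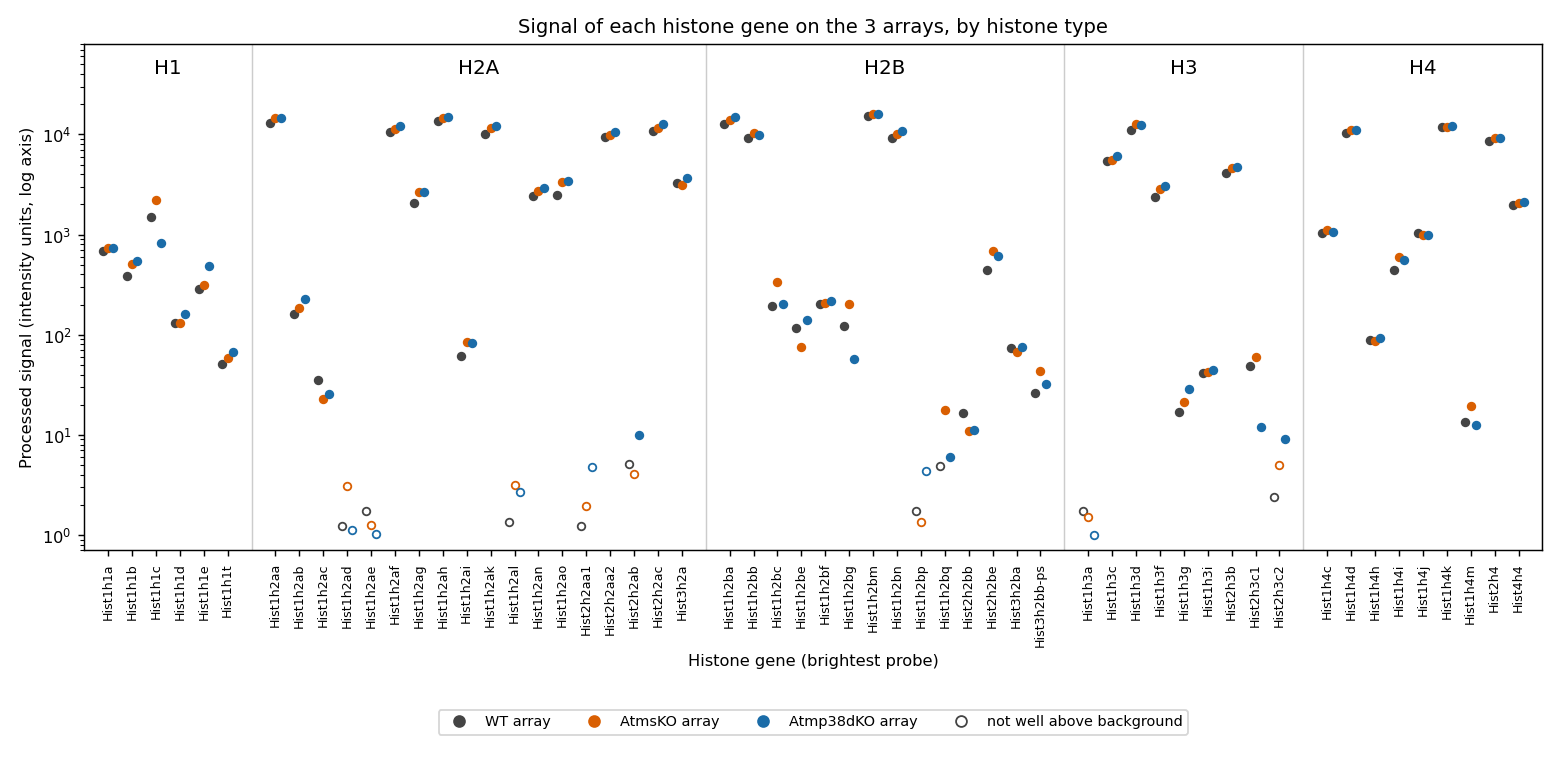
Processed signal (intensity units, log axis) of each of the 56 histone genes at its brightest probe on the WT, AtmsKO and Atmp38dKO arrays, grouped by histone type, with open points for values not well above background. Most genes sit at nearly one height on the 3 arrays, and Hist1h1c, Hist1h2bg and Hist2h3c1 are lowest on the array labelled Atmp38dKO.

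The H2A member of highest mean signal was Hist1h2ah, with signals of 13576 (WT), 14734 (AtmsKO) and 15020 (Atmp38dKO). Hist1h2aa gave 13071, 14599 and 14558, and Hist2h2ac gave 10814, 11671 and 12633. The normalized signals of these 3 were 0.20, 0.24 and 0.19 higher on AtmsKO than on WT, all far below a 2-fold difference. The H2B members of highest mean signal were Hist1h2bm (15265, 15908 and 15990), Hist1h2ba (12588, 13894 and 14889) and Hist1h2bn (9141, 10090 and 10802). Their differences between AtmsKO and WT were 0.14, 0.22 and 0.22.

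Among H3 genes Hist1h3d gave 11147, 12687 and 12542, Hist1h3c gave 5453, 5546 and 6089, and Hist2h3b gave 4075, 4656 and 4765. Among H4 genes Hist1h4k gave 11761, 11938 and 12032, Hist1h4d gave 10392, 11145 and 11119, and Hist2h4 gave 8584, 9215 and 9163. A second Hist1h4d probe, printed 10 times, gave 9969 (SD 246 over 10 spots of the array), 11139 (SD 313) and 11263 (SD 425), and differed by 0.24 between AtmsKO and WT. On processed signal these 6 genes were lowest on the WT array, and after scaling none differed by as much as 1.5-fold between any pair of arrays.

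Linker histone genes differed among themselves. Hist1h1a, one of the H1 genes tied to dividing cells, gave 684.6, 738.9 and 742.4, and Hist1h1b gave 385.4, 510.7 and 539.4, or 0.48 higher in normalized signal on the AtmsKO array than on WT. Hist1h1e gave 284.2, 316.0 and 490.4 and was 0.57 higher on the array labelled Atmp38dKO relative to WT, the largest difference upward among the 47 members well above background on both. Hist1h1c, read by a distal probe, gave 1503, 2228 and 818.5. At that probe Hist1h1c was 0.65 higher on AtmsKO than on WT and 1.09 lower on the array labelled Atmp38dKO relative to WT. The last direction is opposite to that of Hist1h1e at its body probe. The distal probe is listed against no RefSeq transcript in the array annotation. The stem-loop probe of Hist1h1c, which is listed against 1, differed by 0.16 and -0.14.

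Most histone genes were slightly higher on AtmsKO than on WT. The median log2 difference of the 48 members tested was 0.23, against 0.01 over the 28865 genes tested, and 44 of the 48 were above 0. Body probes share sequence, and the brightest probes of Hist1h2an, Hist1h2ao and Hist1h2ai overlap on chromosome 13. Members counted here and below are therefore not separate observations. By type the median was 0.26 for H1, 0.24 for H2A, 0.22 for H2B, 0.27 for H3 and 0.18 for H4. By cluster it was 0.24 for Hist1, 0.19 for Hist2 and 0.01 for the 3 Hist3 genes, and the only Hist4 gene, Hist4h4, differed by 0.13. All 31 body-probe members tested were above 0, from 0.01 to 0.79.

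At least 2-fold, 1 of 48 members was higher on AtmsKO than on WT, where 3.94% of all genes were, and 0 of 48 were lower, where 4.09% were. At 8-fold, the size of change used in the study, 0 members were higher and 0 lower, where 0.315% and 0.263% of all genes were. The one called member was Hist1h2bq, whose distal probe gave 4.86 on WT, not well above background, 17.9 on AtmsKO and 6.05 on the array labelled Atmp38dKO. It was at least 3.54-fold higher on AtmsKO than on WT, a log2 difference of 1.82. With normexp background correction that difference was 0.35 and the call was lost. Normexp was run with an offset that adds 50 intensity units to every value. This shrinks the log2 difference of any dim probe, so a call lost there is no check on it. Hist3h2bb-ps, an H2B pseudogene by its name, gave 26.4, 43.5 and 32.2 and was 0.79 higher on AtmsKO.

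Over the 2684 genes with a mean signal of at least 1000, the median difference was 0.04 and the upper quartile 0.15. Of the 25 members as bright, 18 (72.0%) lay above that quartile, where 25% of the bright genes lie by definition, and 0 lay below the lower quartile. With quantile normalization 19 of 25 lay above and with normexp background correction 18. These 25 probes share sequence, so they are not 25 separate observations, and their median difference was 0.20.

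On the array labelled Atmp38dKO the members lay on both sides of WT. The median of the 50 members tested was -0.05, against 0.02 over 30456 genes, with 22 members above 0 and 28 below. By type the median was 0.16 for H1, 0.02 for H2A, -0.11 for H2B, -0.02 for H3 and -0.16 for H4. With quantile normalization the median of all members turned to 0.02. Of the 25 bright members, 3 lay above the upper quartile of the bright genes and 4 below the lower one. H4 had the narrowest range of the 5 types, with 8 of 9 members below 0 and all between -0.32 and 0.09. It was also the only type without a distal-probe member. Among body-probe members alone H4 was not the narrowest. There H4 ran from -0.28 to 0.09, H3 from -0.06 to 0.15 and H2B from -0.15 to 0.07.

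**Figure D2:**
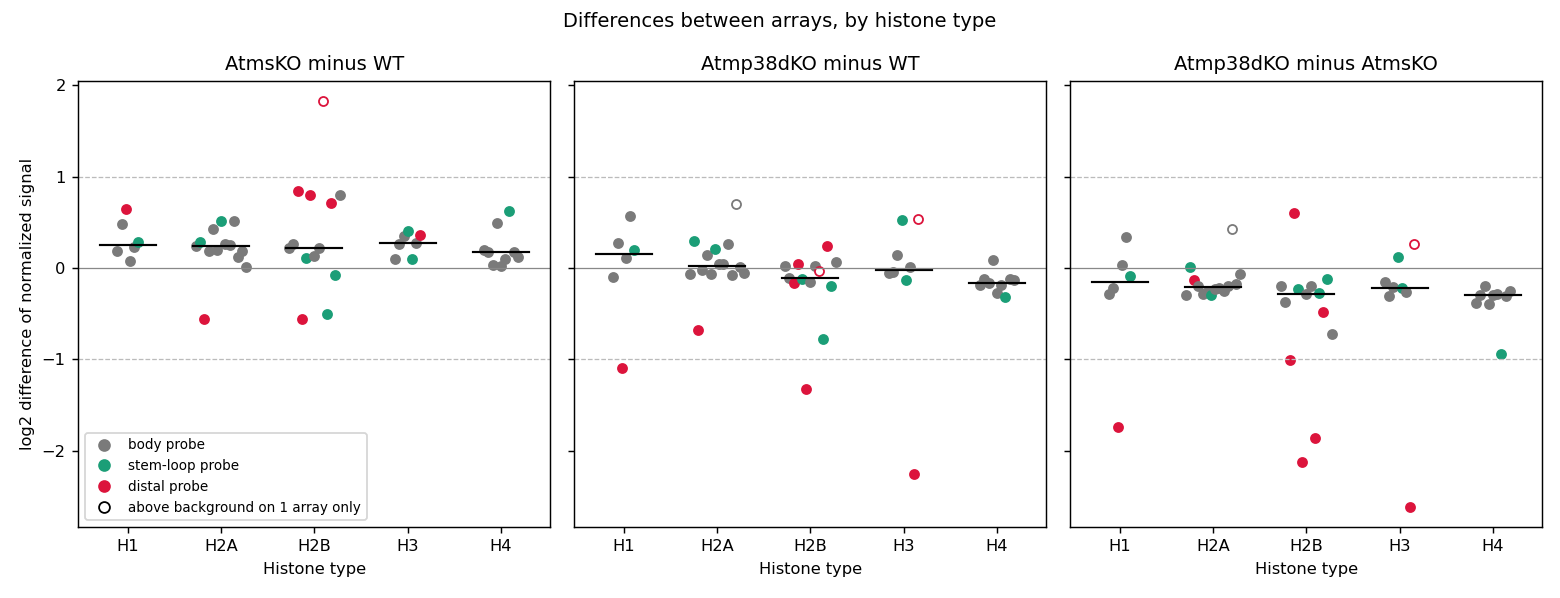
Log2 difference of normalized signal for each tested histone gene, by histone type, in the 3 comparisons. Points are genes coloured by the class of their probe, open points are bounds from genes well above background on 1 array, horizontal bars are type medians and dashed lines mark 2-fold. Body-probe genes lie between -0.73 and 0.79, and the points past 2-fold are all distal-probe genes.

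At least 2-fold, 3 of 50 members were lower on the array labelled Atmp38dKO relative to WT, where 4.49% of all genes were, and 0 of 50 were higher, where 4.02% were. At 8-fold, 0 members were higher and 0 lower, where 0.102% and 0.332% of all genes were. The members' share at 2-fold lay near that of all genes. The 3 were Hist2h3c1, Hist1h2bg and Hist1h1c, each read by a distal probe. None of these 3 probes is listed against a RefSeq transcript in the array annotation. Hist2h3c1, an H3 gene of the Hist2 cluster, gave 49.0 on WT, 59.6 on AtmsKO and 11.97 on the third array, which was 4.75-fold below WT. Hist1h2bg gave 122.9, 202.3 and 56.8, or 2.51-fold lower. Hist1h1c, with the signals above, was 2.13-fold lower. With normexp all 3 calls were lost, at log2 differences of -0.81 for Hist2h3c1, -0.78 for Hist1h2bg and -0.94 for Hist1h1c in place of -2.25, -1.33 and -1.09. The 50 units that normexp adds weigh most on the dim Hist2h3c1 and Hist1h2bg probes. On all 3 the array labelled Atmp38dKO was lowest and the AtmsKO array highest. The middle 30 bases of these 3 distal probes are shown because they read the largest differences downward.
Hist1h1c: ttattttgatcagcatagttgtagattaac
Hist1h2bg: cagtgtaaccaacgcgctgccagatacact
Hist2h3c1: gactctttcttgccttagttaacaccctca

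Other members differed less. Among those measured on both arrays, Hist2h2bb (16.4, 10.9 and 11.1) and Hist1h2ac (35.6, 22.99 and 25.7) were 0.78 and 0.68 lower on the array labelled Atmp38dKO relative to WT, and 0.51 and 0.55 lower on AtmsKO. Hist1h3g (16.95, 21.4 and 28.4), Hist1h2ab (159.2, 184.3 and 227.0), Hist1h1b and Hist1h2ao (2457, 3327 and 3418) were 0.53, 0.30, 0.27 and 0.26 higher on the array labelled Atmp38dKO relative to WT. With normexp Hist1h3g differed by 0.033 from WT, and its difference from AtmsKO turned from 0.12 to -0.074. Hist2h2ab and Hist2h3c2 were well above background on that array alone, at 10.05 and 8.99.

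The array labelled Atmp38dKO lay below the AtmsKO array for most members. The median of 50 tested was -0.25, against -0.00 over 30017 genes, and 43 of 50 were below 0. With quantile normalization and with normexp the members' median was -0.16. The type medians were -0.15 for H1, -0.21 for H2A, -0.28 for H2B, -0.21 for H3 and -0.30 for H4. The 2684 bright genes had a median of -0.10 themselves, and the 25 bright members one of -0.26. Of these members 18 lay under the lower quartile of all bright genes and 0 above the upper one. All 9 H4 members were below 0. At least 2-fold, 5 of 50 members were lower, where 3.72% of all genes were, and 0 of 50 were higher, where 3.75% were. At 8-fold, 0 members were lower and 0 higher, where 0.356% and 0.0899% of all genes were.

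The 5 were Hist2h3c1 (6.10-fold), Hist1h2bg (4.36-fold), Hist1h2bq (3.62-fold), Hist1h1c (3.33-fold) and Hist1h2bc (2.00-fold). Hist1h2bc sat on the limit, at -1.002, and was no longer called with quantile normalization (-0.998) or normexp (-0.81), and Hist1h2bq was no longer called with normexp (-0.49). The other 3 stayed past 2-fold with normexp, at -1.01, -1.32 and -1.56 for Hist2h3c1, Hist1h2bg and Hist1h1c. Hist1h2bc, an H2B gene with a distal probe, gave 195.6 on WT, 332.5 on AtmsKO and 203.3 on the third array, so that AtmsKO was the highest of the 3. Hist1h2be went the other way, with 117.5, 75.6 and 140.6, and was 0.60 higher on the array labelled Atmp38dKO than on AtmsKO. Hist1h1d (129.4, 129.8 and 162.4) differed by 0.03. This comparison shares an array with each of the others, so its values are not a separate observation.

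Differences were grouped by the part of the transcript read. Between AtmsKO and WT the median was 0.20 for body-probe, 0.28 for stem-loop-probe and 0.68 for distal-probe members. Between the array labelled Atmp38dKO and WT it was -0.03, -0.12 and -0.16, and between that array and AtmsKO -0.25, -0.22 and -1.002. The 31 body-probe members measured on both arrays and the bound for Hist2h2ab lay between -0.28 and 0.70 in the comparison of that array with WT, and the 9 distal-probe members tested between -2.25 and 0.54, the upper value being the bound of Hist2h3c2. In the authors' unfiltered values, where dim probes enter as they are, the distal median in that comparison was 0.07. Among genes of mean signal between 20 and 1000, the 6 distal-probe members tested had medians of 0.54, -0.42 and -0.74 in the 3 comparisons, where all genes in that range had 0.01, 0.03 and 0.01. The GC content of the probes moved with the classes, with a median of 36.7% for distal and 55.0% for body probes, and its part in the result was not tested.

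**Figure D3:**
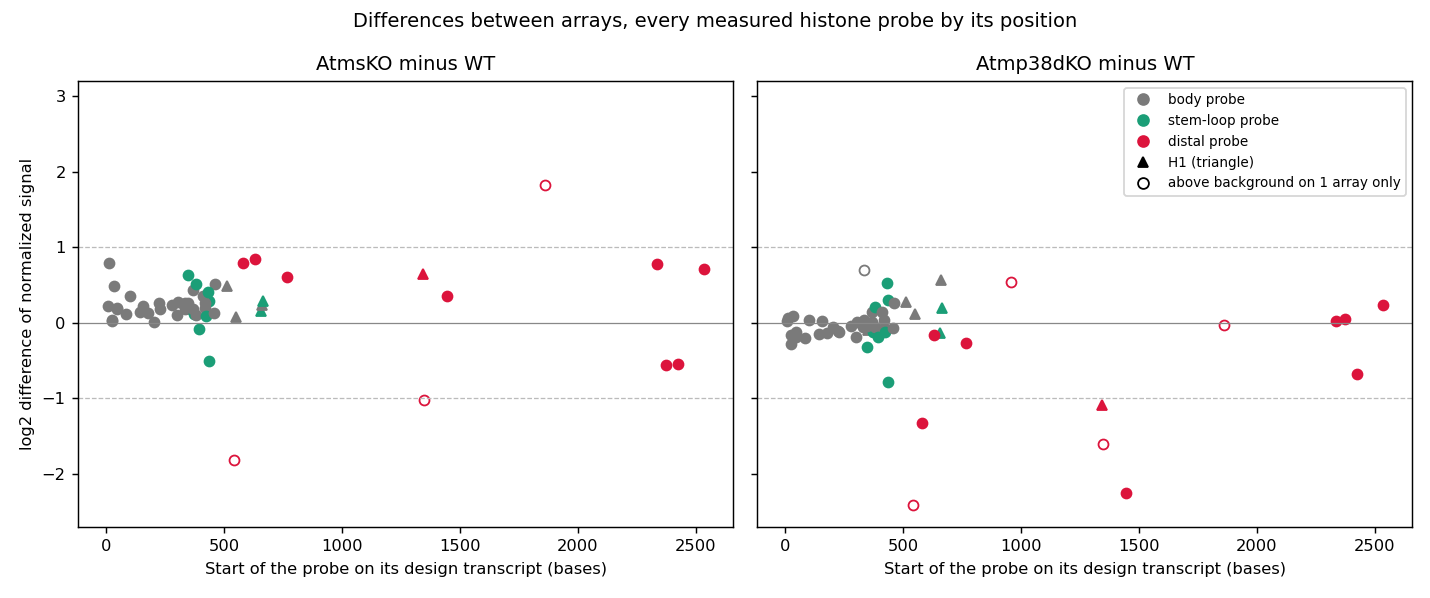
Log2 difference of normalized signal for every tested histone probe against the start of the probe on its design transcript in bases, for AtmsKO minus WT and Atmp38dKO minus WT. Triangles are H1 genes, open points are bounds and dashed lines mark 2-fold. Probes starting before base 500 lie between -0.78 and 0.79, and those farther along lie between -2.41 and 1.82.

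Members with several probes allow the comparison within 1 gene name, though the probes of a name do not always lie at 1 locus. The stem-loop probe of Hist1h1c gave 65.4, 69.3 and 69.1, or 0.16 between AtmsKO and WT and -0.14 between the array labelled Atmp38dKO and WT, where the distal probe gave 0.65 and -1.09. For Hist3h2a the body probe gave 3280, 3126 and 3673 (0.01 and -0.05) and the distal probe 123.0, 177.9 and 118.8 (0.61 and -0.27). For Hist2h2be, an H2B gene known for polyadenylated transcripts, both probes are distal and gave 442.1, 688.8 and 604.9 and 374.3, 606.6 and 441.6, with differences between AtmsKO and WT of 0.72 and 0.77.

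The stem-loop probe of Hist3h2ba gave 74.4, 66.9 and 75.5, while its distal probe gave 22.8 on WT and failed the background test on the other arrays, a level at least 3.53-fold below WT on AtmsKO and at least 5.32-fold below it on the third array. The distal probe of Hist2h2bb gave 13.1 on WT only, at least 2.02-fold and at least 3.05-fold lower. It lies at chr3:96082754-96082813 and the stem-loop probe at chr3:96074056-96074115, farther apart than their design starts of 1348 and 433. The distal probe is listed against no RefSeq transcript, and whether both read 1 gene was not tested. Hist1h2ai likewise has probes far apart, at chr13:21902706-21902779 and chr13:21808994-21809053. Over the 12 members with several probes, 6 other probes were measured on both arrays in each comparison, and 6, 5 and 6 of them differed in the direction of the brightest probe in AtmsKO against WT, Atmp38dKO against WT and Atmp38dKO against AtmsKO.

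The Hist1 probes fall in 2 stretches of chromosome 13 (mm9) and 1 probe, Hist1h2al, at chr13:51295494-51295553. In the stretch chr13:21814057-22133198, measured from the brightest probes, the median of 14 tested genes was 0.26 between AtmsKO and WT and -0.0035 between the array labelled Atmp38dKO and WT. In the stretch chr13:23622937-24026718 the medians of 23 tested genes were 0.23 and -0.06. Hist1h1c at chr13:23832018-23832077 and Hist1h2bg at chr13:23663823-23663882 lie in the latter, in each case with near neighbours such as Hist1h3c and Hist1h2bf. These neighbours differed by -0.06 and -0.12 between the array labelled Atmp38dKO and WT. They are read by a body and a stem-loop probe, while Hist1h1c and Hist1h2bg are read by distal probes. For Hist1h2bg, which has 1 probe, gene and probe class therefore cannot be told apart. Hist1h1c also has a stem-loop probe, which differed by -0.14 between these 2 arrays where its distal probe differed by -1.09.

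Promoters of the members were searched for motifs known from histone genes, on both strands, in RefSeq sequences of GRCm38.p6 that run from 250 bases before to 50 after the start. Of 56 members 49 matched a promoter, by symbol or synonym. The octamer ATTTGCAT, read by the factor Oct-1 (Pou2f1), was in 5 of 11 H2B and 7 of 17 H2A promoters and in 0 of 21 promoters of the other types, against 1.75% of all 27025 promoters. Neighbours on opposite strands, such as Hist1h2aa and Hist1h2ba, may share upstream bases, so that 1 site can count for both. Overlap between promoters was not checked. CCAAT was in all promoters of H1, H2A, H2B and H3 and in 2 of 8 of H4, against 37.9% overall. AAACACA, an element known from H1 promoters, was in 5 of 6 of H1 against 7.14%, and TATAAA in 29 of 49 against 14.2%.

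By probe class, the octamer was in 7 of 30 promoters of body-probe, 3 of 10 of stem-loop-probe and 2 of 9 of distal-probe members. The promoters of Hist1h1c (chr13:23738557-23738806, plus strand) and Hist1h2bg (chr13:23571150-23571399, plus strand), up to the start and in GRCm38.p6, are shown because both genes were called lower in that comparison with WT. Capitals mark AAACACA and CCAAT in the first, and CCAAT on either strand, the octamer and TATAAA in the other.
Hist1h1c: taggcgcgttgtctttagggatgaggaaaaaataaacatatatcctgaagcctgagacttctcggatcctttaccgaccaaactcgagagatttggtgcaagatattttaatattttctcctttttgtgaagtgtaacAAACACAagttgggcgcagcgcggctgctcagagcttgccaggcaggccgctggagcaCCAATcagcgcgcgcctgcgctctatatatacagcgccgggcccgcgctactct
Hist1h2bg: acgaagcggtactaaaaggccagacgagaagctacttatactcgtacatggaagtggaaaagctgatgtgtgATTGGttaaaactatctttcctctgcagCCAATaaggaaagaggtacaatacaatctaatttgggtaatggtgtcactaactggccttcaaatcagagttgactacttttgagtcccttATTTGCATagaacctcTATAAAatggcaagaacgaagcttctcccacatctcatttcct

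Genes that transcribe and mature histone mRNA were read beside the members. Of 25 listed, 24 were on the array, and at least 2-fold 0 were higher and 1 lower on AtmsKO than on WT, with a median of 0.13. The one was Hinfp, the H4 transcription factor, with 55.2, 25.3 and 35.2. Of all genes, 3.94% were higher and 4.09% lower at least 2-fold on AtmsKO than on WT. Slbp, the stem-loop binding protein, gave 335.6, 374.0 and 387.4, or 0.23 and -0.01 against WT, and Npat, the S-phase coactivator of histone genes, gave 94.6, 101.2 and 147.9, or 0.18 and 0.43. Eri1, the exonuclease that trims histone mRNA ends, gave 274.5, 429.8 and 375.3. Lsm10, a part of the U7 particle, gave 135.7, 156.9 and 249.4 and was 0.66 higher on the array labelled Atmp38dKO relative to WT, and its partner Lsm11 gave 22.1, 17.1 and 32.5. Cpsf3, the nuclease that cuts the transcript, gave 342.3, 197.2 and 392.9.

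Of 23 histone chaperone genes 0 passed 2-fold against WT on either array, and the median was 0.11 on AtmsKO and 0.01 on the array labelled Atmp38dKO. Of all genes, 3.94% were higher and 4.09% lower on AtmsKO, and 4.02% and 4.49% on that other array. Nasp, which carries H1 and H3-H4, gave 239.8, 331.5 and 201.9 and was 1.01 lower on the array labelled Atmp38dKO compared with AtmsKO. Hat1, which acetylates new H4, gave 245.6, 383.8 and 471.8. Hira, which deposits H3.3 outside S phase, gave 53.2, 81.8 and 76.2, and Chaf1b, which deposits new histones at forks, gave 421.7, 561.5 and 485.4.

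Among 15 tested of 16 genes on the array listed as replication-independent histones, the median was 0.14 on AtmsKO and 0.05 on the array labelled Atmp38dKO, each against WT. H1f0, the linker variant of resting cells, gave 37.8, 39.6 and 19.4, and was 1.18 lower on the array labelled Atmp38dKO relative to WT and 1.32 lower than on AtmsKO. The macroH2A gene H2afy gave 566.4, 840.7 and 1063, and H2afy3 77.0, 116.5 and 179.1, or 1.00 higher on the array labelled Atmp38dKO relative to WT. H3f3b, which encodes H3.3, gave 6723, 6785 and 6092. H2afb1 was the one gene of this list at least 2-fold higher on AtmsKO than on WT, where 3.94% of all genes were. It gave 4.67, 10.5 and 10.6, and the WT value was not well above background, so that its difference is a bound.

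Of 51 S-phase genes 0 were higher and 1 lower at least 2-fold on AtmsKO than on WT, with a median of 0.11. On the array labelled Atmp38dKO 0 were higher and 2 lower, with a median of 0.12. Of all genes, 3.94% were higher and 4.09% lower on AtmsKO, and 4.02% and 4.49% on that other array, each against WT. Pola2, a subunit of DNA polymerase α, gave 52.3, 18.4 and 27.1, Cdc45 of the replicative helicase 120.7, 64.3 and 58.0, and Gins4 475.9, 238.8 and 310.4. Between the array labelled Atmp38dKO and AtmsKO the S-phase median was 0.08, where that of the histone genes was -0.25, with E2f8 at 102.1, 63.7 and 174.4 and Pold1 at 461.1, 249.3 and 463.6. The lists were not matched for signal level, and the 2684 bright genes had a median of -0.10 in this comparison. The histone median was -0.16 with quantile normalization and with normexp. The median of the 30 mitosis genes was 0.29 on AtmsKO and 0.06 on the array labelled Atmp38dKO, with 2 and 0 higher at least 2-fold.

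Those 2 were Cdc25c, a phosphatase of mitotic entry (24.4, 97.4 and 53.9), and Dlgap5, a spindle protein (95.5, 275.2 and 186.7). Ccnb1, cyclin B1, gave 139.5, 176.7 and 112.3. Of 16 quiescence genes 2 were at least 2-fold lower on AtmsKO than on WT, where 4.09% of all genes were. These were Ndn (254.6, 72.4 and 196.9) and the CDK inhibitor Cdkn1a (213.4, 94.7 and 134.7). On the array labelled Atmp38dKO 1 was lower than on WT, where 4.49% of all genes were, namely Egr1 (25186, 20033 and 10604). In lists this small, 1 or 2 calls are too few to set apart from such shares.

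**Figure D4:**
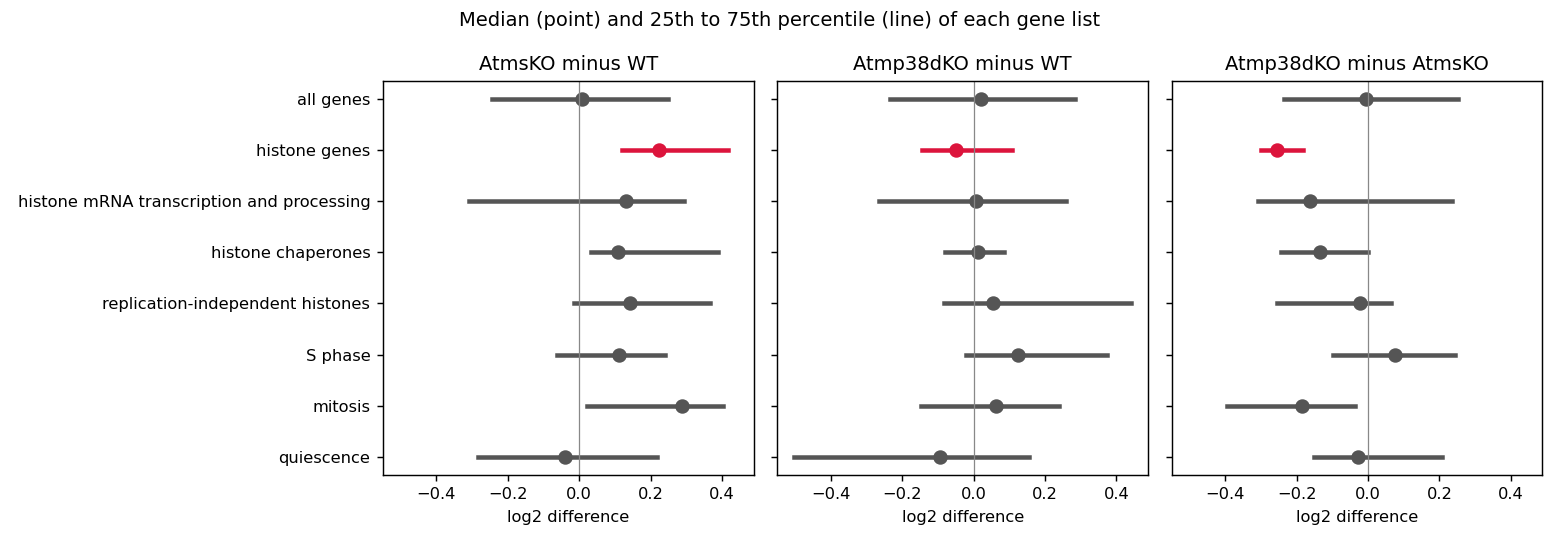
Median (point) and 25th to 75th percentile (line) of the log2 difference of normalized signal in each gene list and over all genes, for the 3 comparisons. In AtmsKO minus WT the histone genes have a median of 0.23 and the mitosis genes one of 0.29, and in Atmp38dKO minus AtmsKO the histone genes lie at -0.25 and the S-phase genes at 0.08. The lists are not matched for signal level.

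In sorted bulk cells, fewer cells of a type and less RNA per cell cannot be told apart, and the scaling leaves only relative levels. All 10 LT-HSC markers were well above background on every array, and 0 of 10 passed 2-fold on AtmsKO against WT, where Tek (45.4, 64.2 and 63.2) and Slamf1 (146.7, 97.2 and 141.6) differed most. On the array labelled Atmp38dKO Fgd5 (197.6, 146.5 and 69.8) and Hoxb5 (91.4, 107.4 and 34.0) were at least 2-fold below WT, where 4.49% of all genes were. The progenitor markers Cd34 (1694, 1666 and 2185), Flt3 (79.4, 70.3 and 100.8) and Cd48 (17.2, 21.2 and 34.0), which the sort selects against, were above background on all arrays.

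Markers of other lineages were also read. Erythroid markers were well above background for 7, 8 and 8 of 8 genes (summed signal 1575, 1402 and 1951), with Alas2 at 6.50, 20.4 and 26.3, Hbb-b2 at 7.88, 17.7 and 26.9, Car1 at 126.9, 58.3 and 146.2 and Hba-a1 at 88.2, 51.1 and 107.8. Granulocyte markers were above background for 9 of 9 on each array (3149, 3506 and 4257), with Elane at 42.4, 77.6 and 93.8, Ngp at 132.4, 183.1 and 203.8, Ctsg at 52.8, 49.8 and 90.4 and Camp at 263.2, 286.1 and 247.4. Megakaryocyte markers were above for 6 of 6 (1761, 3133 and 2439), with Pf4 at 1020, 2366 and 1536, Vwf at 102.2, 195.2 and 187.8, Ppbp at 8.91, 15.5 and 12.6, Itga2b at 169.0, 120.2 and 167.3, Gp1bb at 353.8, 332.8 and 411.1 and Gp9 at 107.9, 102.7 and 124.9. B cell markers were above for 5, 4 and 6 of 6 (431.8, 365.6 and 460.3), with Cd79a at 23.97, 15.4 and 21.8, Cd79b at 57.3, 62.9 and 60.6, Vpreb1 at 32.7, 5.74 and 16.1 and Ebf1 at 6.14, 10.8 and 9.24, and T cell markers for 4 of 5 (660.5, 647.1 and 901.6), with Cd3e at 77.8, 92.3 and 138.4 Lck at 87.1, 97.4 and 144.7, Cd4 at 483.8, 447.7 and 607.8, Cd8a at 7.57, 7.96 and 4.77 and Cd3g at 4.28, 1.74 and 6.01. The part of these cells in the histone differences was not tested.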

How the data were processed

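RNA from sorted LT-HSCs was extracted with the Qiagen RNeasy micro kit, labelled with Cy3 and hybridized to 1 Agilent array per genotype, all 3 on one slide and one scan. How cDNA synthesis was primed is not given in the sources used here. The authors' contractor extracted intensity values with Agilent Feature Extraction 11.5.1.1, per the labels, and the deposited intensity is background-subtracted within the array and not normalized between arrays. The authors also deposited log2 values, equal in scale to log2 of the intensity minus its 75th percentile (the column's 75th percentile is 0 or 0.01), with no filter on background. They were used as an alternative.

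Control and outlier spots were left out (57, 75 and 83 outlier spots, none of a histone probe) and spots of a probe averaged. A probe passed the background test where the flag held for over 50% of its spots. The measure was log2 signal minus the array's 75th percentile, with values that failed the test raised to the lowest value over all probes that passed it on that array. Groups came from the sample titles. Gene names are those in the files, and coordinates are mm9. The number of arrays limits the precision, and with 1 array per group nothing was tested. Calls were tested on simulated data with known fold changes. The changes were put only into genes above background on both arrays and brighter, on average, than the array's 75th percentile. The noise added was about the size of the SD between spots. The simulation therefore does not cover dim probes, bounds or the spread between mice. Alternatives were normexp (offset 50), quantile normalization (limma 3.58.1, R 4.3.3), median centring, the deposited log2 values, other filters, probe rules and a 1.5-fold limit. Python 3.11.15, pandas 2.3.3 and numpy 2.4.6 were used.

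The members, lists and tests were chosen with earlier results of these data known. Named genes were the 3 of highest mean signal of each type, the 5 largest rises and falls per comparison among members above background on both arrays, members past 8-fold or with a bound past 4-fold, the 2 largest differences per list, and Atm and Mapk14. Others are named for their role or their several probes. One B cell marker of the list is not reported here, and the list's counts and sums are without it.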

Additional observations from a re-analysis of the deposited data

How the results depend on the processing

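No paired analysis was possible because each genotype has 1 array, and leaving out an array leaves a genotype with none. Of the values recomputed for the histone genes, their types and probe classes, 116 moved by less than the spot SD (counts, by less than 1.5 times), 49 moved further, and no called gene changed sign. Of the differences of single named genes, 267 moved by less than the spot SD and 105 further, among them 64 of the 93 recomputed with normexp, 39 of 93 with quantile normalization and 2 of 93 with the deposited values. The probe classes and their alternatives were chosen after seeing the data. The offset of 50 in normexp shrinks differences of dim probes by its setting, and the cause of the moves was otherwise not tested.

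With normexp the median of the histone genes was 0.17 (AtmsKO against WT) and -0.16 (Atmp38dKO against AtmsKO). Between AtmsKO and WT it gave 0.16 for H1, 0.19 for H3, 0.11 for stem-loop and 0.44 for distal probes, with 0 genes higher at least 2-fold. Between Atmp38dKO and WT it gave -0.045 for both H2B and stem-loop probes, with 0 lower. Between Atmp38dKO and AtmsKO it gave -0.12 for H2A, -0.19 for H2B, -0.12 for H3, -0.22 for H4, -0.15 for body, -0.12 for stem-loop and -0.49 for distal probes, with 3 lower.

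With quantile normalization the histone median was 0.018 between Atmp38dKO and WT and -0.16 between Atmp38dKO and AtmsKO. H3 and H4 gave 0.22 and 0.12 between AtmsKO and WT. Between Atmp38dKO and WT, H2A gave 0.10, H3 0.068, H4 -0.090 and body probes 0.059. Between Atmp38dKO and AtmsKO, H2A gave -0.10, H3 -0.13, H4 -0.19 and body probes -0.16.

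With the deposited log2 values, 4, 3 and 3 genes were higher in the 3 comparisons and 5 lower in Atmp38dKO against WT. Stem-loop probes gave 0.12 between AtmsKO and WT, and distal probes 0.74, 0.07 and -0.495 in the 3 comparisons. Without floor or filter 4, 3 and 2 genes were higher, and with both arrays required above background 0 were higher on AtmsKO than on WT. Over every histone probe 2 and 5 were lower against WT on AtmsKO and Atmp38dKO. At 1.5-fold 7, 1 and 1 were higher, and 5 were lower in Atmp38dKO against WT. The shares of all genes called under these alternatives and under normexp are not given, so these counts cannot be set beside them. The mean in place of the median gave -0.36 between Atmp38dKO and AtmsKO. Signals near background limit the dim distal probes, and no alternative measures the spread between mice.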
